A study of Mus musculus with 12 samples.

Results

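Ketone bodies are fuel molecules that the liver makes from fatty acids and that the heart burns. The 4 genes described here, Bdh1, Oxct1, Acat1 and Slc16a1, encode the steps by which a heart cell takes them up and breaks them down, and they were taken by symbol from the 29564 genes of the deposited tables. Poly(A) RNA came from the left ventricles of 12 wild-type C57BL6 mice in 3 groups of 4, each mouse giving a single library. The Control-Veh group (C1 to C4, in order of animal number) was non-failing and received vehicle. The HFpEF-Veh group (V1 to V4) received vehicle on top of a high-fat diet combined with L-NAME, an inhibitor of nitric oxide synthases, which models HFpEF, the heart failure in which the ejection fraction is preserved. The HFpEF-TYA-018 group (T1 to T4) had that diet and L-NAME too, and received 15 mg/kg of the oral compound TYA-018, which inhibits the cytoplasmic deacetylase HDAC6. The vehicle in all 3 groups was a mixture of DMSO, PEG-300 and water. The title of the series speaks of 1 dose and the study of hearts harvested hours after it, whereas the treatment text in the labels describes daily dosing for weeks. The study used male mice bought as young adults, and the labels give neither sex nor age, so the ages of these animals at harvest are not given here. The model is made by diet and drug in an inbred strain and carries no transgene.

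In the breakdown of ketone bodies, the monocarboxylate transporter MCT1, the product of Slc16a1, carries 3-hydroxybutyrate and acetoacetate across the cell membrane together with a proton, as it does lactate and pyruvate. In the mitochondrion BDH1 oxidizes 3-hydroxybutyrate to acetoacetate, OXCT1 (also called SCOT) moves coenzyme A from succinyl-CoA onto acetoacetate, and the thiolase ACAT1 splits the acetoacetyl-CoA into acetyl-CoA for the citric acid cycle. OXCT1 is the step that the liver lacks, which is why the liver exports ketone bodies. ACAT1 also acts in the breakdown of isoleucine. A greater use of ketone bodies as fuel has been reported in some failing hearts. Whether it holds in this model of preserved ejection fraction was not tested, since fuel use was not measured here.

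On mouse assembly GRCm38, Bdh1 (ENSMUSG00000046598) lies on the forward strand of chromosome 16 at chr16:31422280-31458901, and Oxct1 (ENSMUSG00000022186) on the forward strand of chromosome 15 at chr15:4026383-4155344. Acat1 (ENSMUSG00000032047) lies on the reverse strand of chromosome 9 at chr9:53580522-53610382, and Slc16a1 (ENSMUSG00000032902) on the forward strand of chromosome 3 at chr3:104638668-104658462. Promoter windows at RefSeq starts were at hand for 3 of the 4 genes, not for Acat1, and for Bdh1 at 2 starts that are 6456 bases apart. The 200 bases from 250 to 51 before each start are shown, on GRCm38.p6 and on the strand of the gene, because Bdh1 and Oxct1 were both lowest in HFpEF-Veh and because Bdh1 has a pair of starts. Capitals mark matches to the motifs searched, which are named after the sequences.
Bdh1, first start, chr16:31422047-31422246, forward strand: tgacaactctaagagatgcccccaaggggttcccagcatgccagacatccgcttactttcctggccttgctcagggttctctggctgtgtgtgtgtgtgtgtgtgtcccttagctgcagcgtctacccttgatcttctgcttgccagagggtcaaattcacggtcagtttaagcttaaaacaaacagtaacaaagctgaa
Bdh1, second start, chr16:31428503-31428702, forward strand: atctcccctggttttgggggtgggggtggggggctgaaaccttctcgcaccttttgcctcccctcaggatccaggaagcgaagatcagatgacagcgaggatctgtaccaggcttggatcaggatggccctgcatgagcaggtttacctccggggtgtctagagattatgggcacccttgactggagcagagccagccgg
Oxct1, chr15:4026178-4026377, forward strand: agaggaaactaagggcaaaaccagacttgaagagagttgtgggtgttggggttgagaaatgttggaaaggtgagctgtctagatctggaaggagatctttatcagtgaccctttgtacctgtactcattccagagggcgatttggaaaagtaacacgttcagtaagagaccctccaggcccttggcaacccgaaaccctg
Slc16a1, chr3:104638414-104638613, forward strand: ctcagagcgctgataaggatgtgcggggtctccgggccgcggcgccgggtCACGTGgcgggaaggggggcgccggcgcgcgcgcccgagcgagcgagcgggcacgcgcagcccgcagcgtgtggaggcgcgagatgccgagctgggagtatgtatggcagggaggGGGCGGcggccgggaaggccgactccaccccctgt

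Both strands of these windows were searched for a GC box (GGGCGG), an E-box (CACGTG), the TATA box (TATAAA), the CCAAT box (which is CCAAT), the nuclear receptor half-site AGGTCA, the ERR element TNAAGGTCA, which contains that half-site, and the direct repeat AGGTCANAGGTCA, which contains it in both arms. The window of Slc16a1 held an E-box, from 200 to 195 bases before the start, and a GC box, from 85 to 80 bases before it. Over all 32851 RefSeq promoter windows of this length an E-box was found in 4.34% and a GC box in 24.6%. Neither Bdh1 window nor the Oxct1 window held any of the motifs, of which the half-site occurred in 11.4% of all windows, the ERR element in 0.938% and the direct repeat in 0.0244%. The TATA box was found in 9.14% of all windows and the CCAAT box in 28.4%. The windows end 51 bases before the start, so sites nearer to it, TATA boxes included, were not searched. G and C made up 76.0% of the Slc16a1 window, 48.0% of the Oxct1 window, and 50.0% and 59.0% of the Bdh1 windows, against a median of 51.5% over all windows.

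Levels are given as normalized counts on TMM-scaled library totals (CPM), which compare 1 gene across libraries, and as TPM, which also divide by the length of the transcripts and so compare genes. Library totals were 61177646 to 83928922 counts, and 14333 genes had enough counts to be tested, all 4 genes among them. The 4 genes were selected on their measured levels across the 3 groups of these same libraries, so their levels and fold changes are a description and carry no test. Cardiomyocyte markers summed to 16000 to 34600 TPM in every library, and the 6 adipocyte markers to at most 0.722 TPM. Atrial markers summed to 136 to 226 TPM in Control-Veh, 57.6 to 143 in HFpEF-Veh and 129 to 205 in HFpEF-TYA-018. A marker was called at an edgeR adjusted p under 0.05 over all genes tested. Of all genes, 10.9% were called higher and 10.3% lower in HFpEF-Veh against Control-Veh. For HFpEF-TYA-018 against HFpEF-Veh the shares were 8.93% and 10.4%. In HFpEF-Veh against Control-Veh, 7 of 10 cardiomyocyte markers were called lower and 1 higher (median log2 fold change -0.45), 6 of 6 macrophage markers and 4 of 8 fibroblast markers were called higher, and in HFpEF-TYA-018 against HFpEF-Veh 4 cardiomyocyte markers were called higher, 3 macrophage and 5 fibroblast markers lower. On summed TPM, cardiomyocyte markers were 21800 to 27500 in Control-Veh, 16000 to 19500 in HFpEF-Veh and 19100 to 34600 in HFpEF-TYA-018, fibroblast markers 135 to 218, 167 to 227 and 144 to 195, and macrophage markers 39.3 to 56.0, 52.7 to 74.4 and 51.6 to 78.8, with no marker of the 3 lists at 0 throughout a group. Red cell markers were called higher in 6 of 6 and then lower in 6 of 6 (1700 to 2730, 4520 to 13400 and 3100 to 3940 TPM), and endothelial markers higher in 3 of 8 and then lower in 5 of 8 (552 to 724, 444 to 655 and 587 to 967 TPM). Hepatocyte markers summed to 10.6 to 35.4, 1.20 to 5.87 and 3.12 to 30.7 TPM, with 5 of 6 called lower in HFpEF-Veh against Control-Veh (median log2 fold change -2.65) and a median of 1.74 in HFpEF-TYA-018 against HFpEF-Veh, where none was called (4 at an unadjusted p under 0.05; 1 higher by DESeq2). In CPM, Bdh1 and Oxct1 below fell in HFpEF-Veh and rose under TYA-018, as did the cardiomyocyte, hepatocyte, atrial and adipocyte medians. The atrial medians were -0.77, with 1 of 3 tested markers called lower, and 0.41, with none called. Those of the 2 adipocyte markers tested were -1.52 and 1.56, with none called. The smooth muscle and pericyte medians were near 0 (-0.062 and 0.035). Acat1 and Slc16a1 did not follow that order. The part of the marker changes in the levels below was not tested. In bulk tissue fewer cells of a type and less RNA per cell cannot be told apart. Mitochondrially encoded genes took 37.0 to 40.6% of the counts in Control-Veh, 43.1 to 47.7% in HFpEF-Veh and 35.4 to 41.2% in HFpEF-TYA-018 (two-sided exact permutation p = 0.0286, the smallest that 4 against 4 allows, for HFpEF-Veh against either group; adjusted p = 0.0515 over 9 such tests).

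Oxct1, the coenzyme A transferase that commits acetoacetate to oxidation, was lower in every HFpEF-Veh heart than in any Control-Veh or HFpEF-TYA-018 heart. The Control-Veh libraries held 438, 445, 450.2 and 438 CPM (443 ± 5.91, SD, n = 4), the HFpEF-Veh libraries 323, 304, 399.6 and 327 CPM (338 ± 42.0), and the HFpEF-TYA-018 libraries 450.4, 459, 431 and 430.0 CPM (443 ± 14.7). Of the treated hearts, 2 lay above every control and 2 below every control, and mouse V3 was the HFpEF-Veh heart nearest to them. The log2 fold change was -0.39 ± 0.078 (SE) in HFpEF-Veh against Control-Veh, or 0.764 of the control level, and 0.39 ± 0.078 in HFpEF-TYA-018 against HFpEF-Veh. For the treated hearts against the controls it was -0.0011 ± 0.077, so the means of those groups lay well within the spread between mice. Without mouse V3 the log2 fold changes against Control-Veh and under TYA-018 were -0.48 and 0.48.

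Bdh1, the dehydrogenase that opens the breakdown of 3-hydroxybutyrate, was also lowest in HFpEF-Veh, with a larger difference and a wider spread. The Control-Veh libraries held 71.9, 73.8, 64.3 and 80.7 CPM (72.7 ± 6.75, SD, n = 4), the HFpEF-Veh libraries 43.9, 43.5, 62.1 and 42.0 CPM (47.9 ± 9.56), and the HFpEF-TYA-018 libraries 56.6, 70.1, 81.1 and 54.6 CPM (65.6 ± 12.4). All 4 HFpEF-Veh hearts were below all 4 Control-Veh hearts, while the treated hearts overlapped both groups: 2 of them lay above every HFpEF-Veh heart and 2 lay below every Control-Veh heart. The log2 fold change was -0.60 ± 0.148 (SE) in HFpEF-Veh against Control-Veh, 0.45 ± 0.148 in HFpEF-TYA-018 against HFpEF-Veh and -0.15 ± 0.147 in HFpEF-TYA-018 against Control-Veh. Mouse V3 again held the highest level of its group, and without it the first 2 of these were -0.75 and 0.61.

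Acat1, the thiolase of the last step, differed in its order: in CPM its level was lowest in Control-Veh, intermediate in HFpEF-Veh and highest in HFpEF-TYA-018. The Control-Veh libraries held 269, 301, 309.9 and 307 CPM (297 ± 18.9, SD, n = 4), the HFpEF-Veh libraries 308, 319, 347 and 351 CPM (331 ± 21.1), and the HFpEF-TYA-018 libraries 409, 387, 369 and 384 CPM (387 ± 16.8). Control-Veh and HFpEF-Veh overlapped, since 1 HFpEF-Veh heart lay within the control range, and all 4 treated hearts lay above all 8 others. The log2 fold change was 0.16 ± 0.067 (SE) in HFpEF-Veh against Control-Veh, 0.23 ± 0.067 in HFpEF-TYA-018 against HFpEF-Veh and 0.38 ± 0.068 in HFpEF-TYA-018 against Control-Veh. The first of these turned on both TPM scales that are not rescaled (-0.16) and was 0.048 with the length offset.

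Slc16a1, the transporter of the cell membrane, was slightly above the controls in HFpEF-Veh and differed little between the HFpEF groups. The Control-Veh libraries held 90.6, 85.8, 97.6 and 89.0 CPM (90.8 ± 4.98, SD, n = 4), the HFpEF-Veh libraries 99.5, 103, 109.7 and 114 CPM (107 ± 6.60), and the HFpEF-TYA-018 libraries 85.6, 109, 104 and 105 CPM (101 ± 10.4). HFpEF-Veh did not overlap Control-Veh, by a margin of less than 1 SD, while the treated group overlapped both: mouse T1 lay below every heart of the other groups, and the other 3 treated hearts lay within the HFpEF-Veh range. The log2 fold change was 0.23 ± 0.079 (SE) in HFpEF-Veh against Control-Veh, -0.08 ± 0.079 in HFpEF-TYA-018 against HFpEF-Veh and 0.15 ± 0.079 in HFpEF-TYA-018 against Control-Veh. On scales that divide by effective length the first 2 differences lose their size or turn, as given with the TPM values below.

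The groups did not overlap in CPM for 3 of the 4 genes in HFpEF-Veh against Control-Veh (Bdh1 and Oxct1 lower, Slc16a1 higher), where 23.5% of all genes tested did not overlap. They did not overlap for 2 in HFpEF-TYA-018 against HFpEF-Veh (Oxct1 and Acat1 higher; 25.1% of all genes tested) and for Acat1 alone in HFpEF-TYA-018 against Control-Veh (14.8%). Nothing is read from these counts, since results of the same comparisons were known when the genes were chosen. The comparisons also share groups: HFpEF-Veh enters the first and the second, so a low HFpEF-Veh value appears in both. The plot of CPM by mouse shows the 4 genes side by side.

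**Figure D1:**
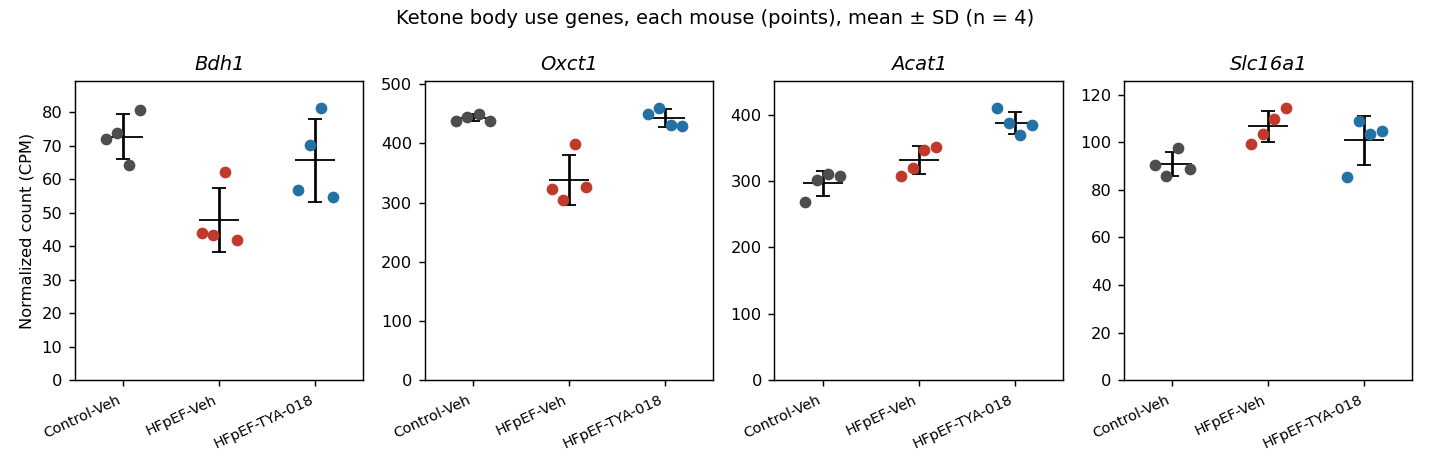
Normalized count (CPM, linear axis from 0) of Bdh1, Oxct1, Acat1 and Slc16a1 in each mouse (points), with the mean and SD of each group of 4 (bars). Bdh1 and Oxct1 dip in HFpEF-Veh, with mouse V3 the highest point of that group in both, whereas the 4 HFpEF-TYA-018 points of Acat1 sit above all others.

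Scaled by effective length, the 4 genes kept 1 order of mean TPM in all 3 groups, Acat1 first, then Oxct1, Bdh1 and Slc16a1. That order rests on effective lengths that depart from the annotated ones. Those of Slc16a1 all exceeded its single annotated transcript of 4426 bases. Those of Acat1, 1425 to 2072 bases, were all below its only annotated coding transcript of 3405 bases. Whether the order holds on annotated lengths was not tested. In Control-Veh the mean TPM were 62.5 ± 8.53 (SD, n = 4) for Acat1, 44.3 ± 0.714 for Oxct1, 13.5 ± 7.74 for Bdh1 and 4.01 ± 0.0609 for Slc16a1, and no neighbouring pair of these 4 overlapped. In HFpEF-Veh they were 55.8 ± 5.63, 26.9 ± 4.99, 4.18 ± 1.6 and 3.4 ± 0.308, and Bdh1 overlapped Slc16a1. In HFpEF-TYA-018 they were 93.3 ± 34.1, 50.2 ± 12.9, 8.14 ± 2.33 and 5.25 ± 1.01, where Acat1 overlapped Oxct1 and Bdh1 overlapped Slc16a1. The ratio of Acat1 to Oxct1 TPM within a library was 1.27 to 1.68 in Control-Veh, 1.84 to 2.24 in HFpEF-Veh and 1.67 to 2.09 in HFpEF-TYA-018. Both HFpEF groups thus had more thiolase transcript per transferase transcript than any control heart, apart from 1 treated heart at 1.67.

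**Figure D2:**
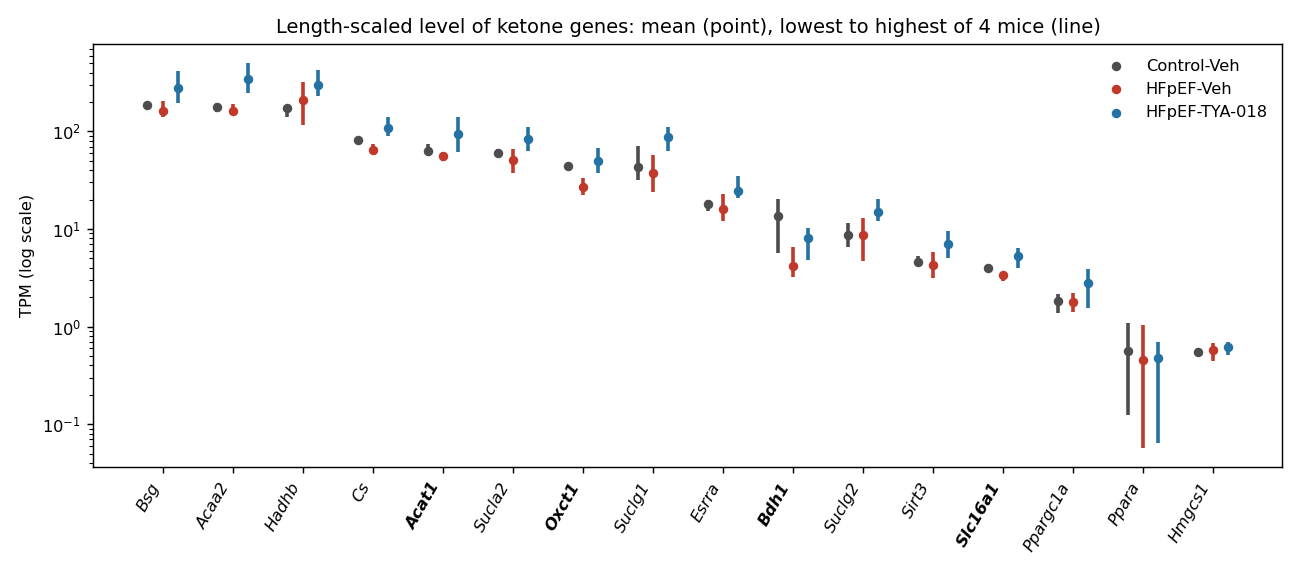
Length-scaled level (TPM, log axis) of the ketone genes with a mean of at least 0.5 TPM in Control-Veh, ordered by that mean; points are group means and lines run from the lowest to the highest of 4 mice, with Bdh1, Oxct1, Acat1 and Slc16a1 in bold. Bsg, Acaa2 and Hadhb stand at the top, and the Control-Veh line of Bdh1 is the longest of the 4 genes in bold.

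The length by which TPM divides differed between libraries, and Bdh1 was the gene most affected. Its TPM were 8.04, 20.2, 5.66 and 20.0 in Control-Veh, 3.66, 3.22, 6.56 and 3.28 in HFpEF-Veh and 10.2, 8.36, 9.23 and 4.82 in HFpEF-TYA-018. The controls with 20.2 and 20.0 TPM, C2 and C4, had effective lengths of 1215 and 1404 bases, and the other 10 libraries 2809 to 4176 bases, so these 2 controls stand apart in length and in TPM, and far less in CPM (73.8 and 80.7 against 71.9 and 64.3). An effective length averages the annotated transcripts by how the reads were assigned, with the authors' corrections for sequence, GC and position bias. GENCODE M21 annotates 7 Bdh1 transcripts of 438 to 3162 bases, and effective lengths of up to 4176 bases exceed the longest. How far the mix of transcripts accounts for the differences in length was not tested. The log2 fold change of Bdh1 in HFpEF-Veh against Control-Veh was -1.51 with effective lengths as an offset and -1.35 on log2(TPM + 1), against -0.60 on CPM.

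The other 3 genes showed the same dependence to a smaller degree. The effective lengths of Oxct1 reached 4332 bases, above its longest annotated transcript of 3527 bases. Slc16a1 has a single annotated transcript of 4426 bases, yet its effective lengths were 7027 to 8555 bases in Control-Veh, 8649 to 11400 in HFpEF-Veh and 6721 to 8469 in HFpEF-TYA-018, all above that length. Its TPM were 3.95, 4.07, 4.06 and 3.97 in Control-Veh, 3.65, 3.41, 3.56 and 2.96 in HFpEF-Veh and 6.42, 5.54, 5.01 and 4.01 in HFpEF-TYA-018. On TPM the HFpEF-Veh hearts were therefore below the controls and not above them, and the log2 fold changes were -0.19 in HFpEF-Veh against Control-Veh and 0.50 in HFpEF-TYA-018 against HFpEF-Veh on log2(TPM + 1), the latter 0.15 after rescaling and 0.17 with the length offset. Acat1 was -0.16 in HFpEF-Veh against Control-Veh on log2(TPM + 1) and 0.048 with the length offset, whereas Oxct1 kept its direction in HFpEF-Veh against Control-Veh and in HFpEF-TYA-018 against HFpEF-Veh on every scale. On log2(TPM + 1) the median of all genes was itself 0.17 in HFpEF-TYA-018 against HFpEF-Veh and -0.07 in HFpEF-Veh against Control-Veh, and of the genes called 97.0% were higher in the first of these (46.3% in the count fit) and 29.7% in the second (51.5%). Mouse T1 had the highest TPM of its group for all 4 genes. Relative to the median of all genes, the TYA-018 difference on that scale was then smaller than printed for each of the 4.

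**Figure D3:**
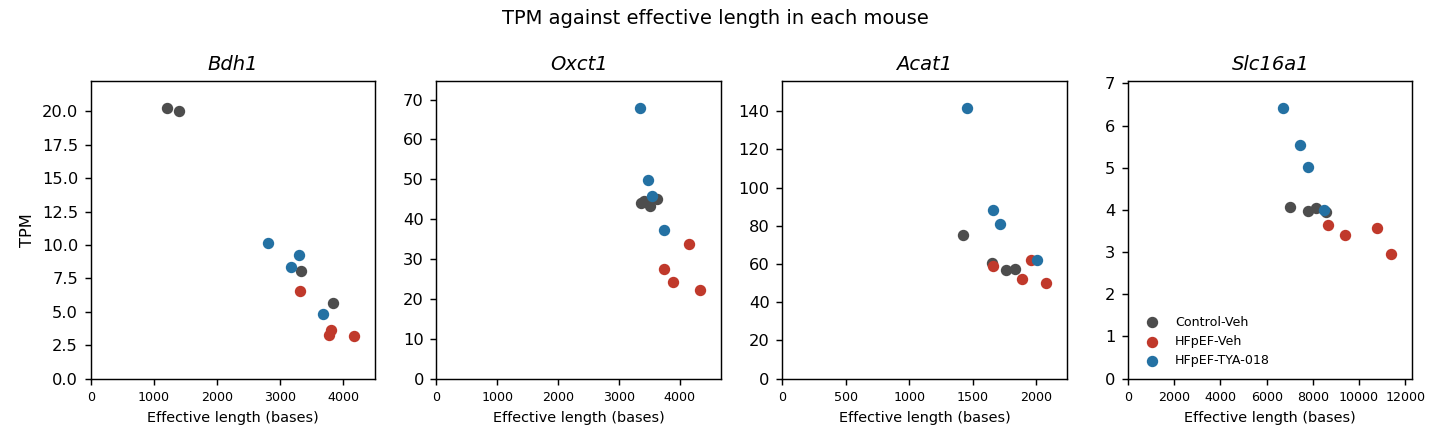
TPM against effective length in bases (both axes from 0) for each gene in each mouse, coloured by group. For Bdh1, 2 Control-Veh mice at 1215 and 1404 bases have 20.2 and 20.0 TPM, apart from the 10 other libraries.

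**Figure D4:**
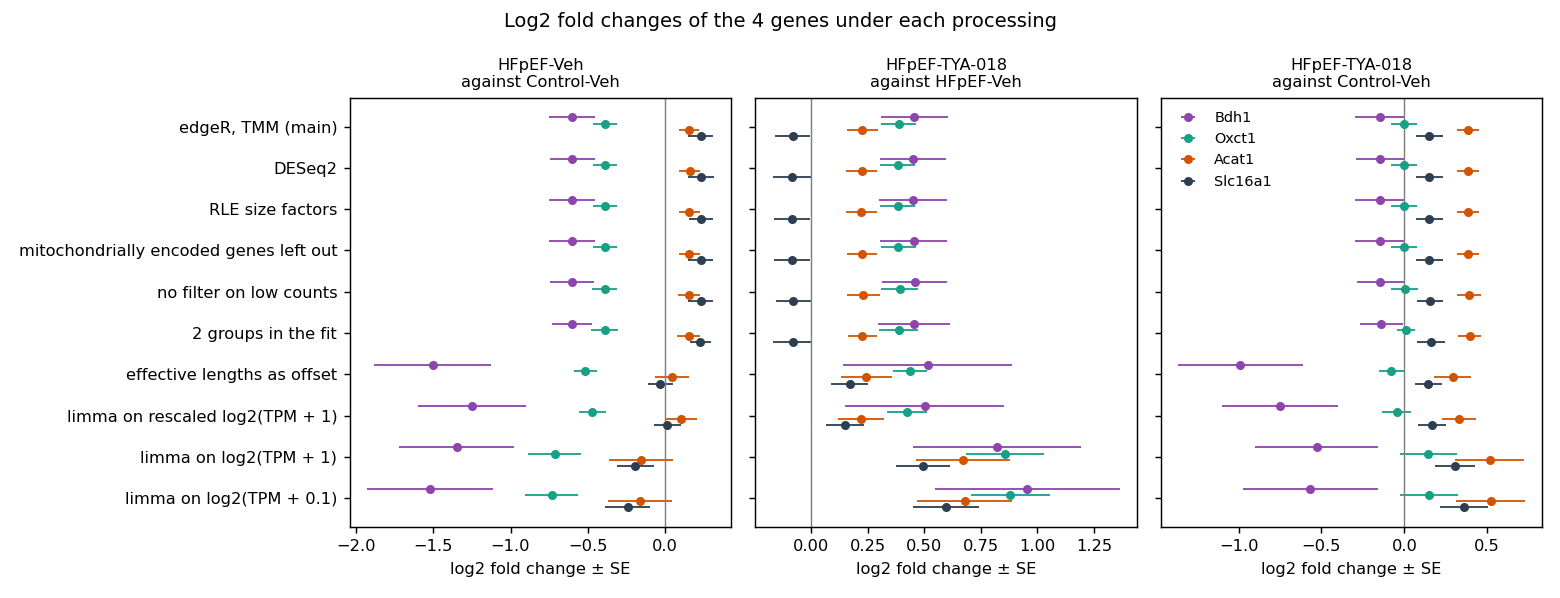
Log2 fold change with its SE of the 4 genes under the reported fit and 9 other ways of processing, for each comparison. Settings on counts alone give nearly the same values, and those that divide by effective length or use TPM move Bdh1 in HFpEF-Veh against Control-Veh to between -1.25 and -1.52 and turn Slc16a1 in HFpEF-TYA-018 against HFpEF-Veh.

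Around these 4 genes stand related enzymes, further transporters, receptors, the partners that supply or take their products, and regulators, a list of 27 genes, of which 18 had enough counts to be tested. A gene is called where edgeR's quasi-likelihood test gives it an adjusted p (Benjamini-Hochberg, all genes tested) under 0.05. In HFpEF-Veh against Control-Veh 1 of the 18 rose and 2 fell, against 10.9% and 10.3% of all genes tested, and the median log2 fold change was 0.16, against -0.01 over all genes. In HFpEF-TYA-018 against HFpEF-Veh 7 rose and 1 fell, against 8.93% and 10.4% of all genes, with a median of 0.21 against 0.00. In HFpEF-TYA-018 against Control-Veh 2 rose and none fell (8 at an unadjusted p under 0.05; 4 rose and none fell by DESeq2), against 3.12% and 2.74%, with a median of 0.26 against -0.02. The median of the first comparison was -0.08 on log2(TPM + 1), so its sign depends on the scale, and the other 2 medians were above 0 on every scale. None of the 3 calls of the first comparison held without each library in turn, against 6 of the 8 calls of the second and both of the third. Under all 9 other settings 0 of the 3, 1 of the 8 (Acaa2) and 0 of the 2 calls held.

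Of the partners of OXCT1 and ACAT1, 3 of 4 were called higher under TYA-018, against 8.93% of all genes tested. Suclg1 and Sucla2 encode subunits of succinyl-CoA synthetase, which makes and uses the succinyl-CoA that OXCT1 draws on, and Cs encodes citrate synthase, which takes up the acetyl-CoA that ACAT1 releases. In HFpEF-TYA-018 against HFpEF-Veh all 3 rose, Suclg1 by a log2 fold change of 0.46 ± 0.102 (SE; edgeR adjusted p = 0.00983), Sucla2 by 0.24 ± 0.068 (0.0281) and Cs by 0.34 ± 0.064 (0.00504), and the groups did not overlap for any. Of all genes tested, 25.1% did not overlap in that comparison, in either direction. Cs was 660.1, 725, 757 and 714 CPM in Control-Veh, 611, 597, 671 and 677 CPM in HFpEF-Veh and 812, 790.1, 797 and 830.2 CPM in HFpEF-TYA-018. None of the 3 passed the test in HFpEF-Veh against Control-Veh, at -0.10, -0.09 and -0.16 on the log2 scale (edgeR adjusted p 0.0911 to 0.524). There Cs was called lower by DESeq2 (-0.16, adjusted p = 0.049) and without mouse C1 (-0.20, edgeR adjusted p = 0.0313). In HFpEF-TYA-018 against Control-Veh none of the 3 passed (edgeR adjusted p 0.0579 to 0.211). DESeq2 called Suclg1 (0.36, adjusted p = 0.0081) and Cs (0.18, adjusted p = 0.0411) higher in that comparison. The fourth, Suclg2, had 0.46 ± 0.226 under TYA-018 (edgeR adjusted p = 0.18), and 20.6% of its 31-base words also occur in other genes, so its counts are uncertain. The call of Sucla2 was lost without each of V1, V2, V4, T1, T2 and T3 (log2 fold change 0.19 to 0.25; edgeR adjusted p 0.0540 to 0.0736). On rescaled TPM none of the 3 was called (limma adjusted p 0.0996 to 0.266), and with the length offset Suclg1 and Sucla2 were not (edgeR adjusted p = 0.118 and 0.143).

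Of the other mitochondrial thiolases, Acaa2 and Hadhb, which act in fatty acid oxidation, both rose under TYA-018. Acaa2 was 471, 629.6, 622 and 594 CPM in Control-Veh, 582, 552, 599.7 and 595 CPM in HFpEF-Veh and 946, 883, 805 and 814 CPM in HFpEF-TYA-018. The increase was 0.57 ± 0.092 on the log2 scale (SE; edgeR adjusted p = 0.00261) in HFpEF-TYA-018 against HFpEF-Veh and 0.57 ± 0.092 (0.00588) against Control-Veh. Hadhb rose by 0.46 ± 0.074 (edgeR adjusted p = 0.00263) and 0.59 ± 0.074 (0.00214) in the same comparisons, and 23.3% of its 31-base words occur in other genes. The calls of Hadhb held without each library but not on the 4 scales that use TPM or effective length, where the rise against HFpEF-Veh was 0.055 with the length offset (edgeR adjusted p = 0.907) and 0.12 on rescaled TPM (limma adjusted p = 0.821). Those of Acaa2 against HFpEF-Veh held on every scale, and against Control-Veh they were lost on log2(TPM + 1) and log2(TPM + 0.1) (limma adjusted p 0.118 and 0.0991). Neither passed the test in HFpEF-Veh against Control-Veh (0.01 and 0.14; edgeR adjusted p 0.963 and 0.210). In CPM the treated hearts lay above every other heart for Acat1, Acaa2 and Hadhb, and in TPM for Acaa2 alone. Of all genes tested, 25.1% did not overlap in CPM against HFpEF-Veh and 14.8% against Control-Veh, in either direction.

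Of the regulators, Esrra, a nuclear receptor of mitochondrial genes, and Sirt3, the mitochondrial deacetylase, had small changes, down in HFpEF-Veh and up under TYA-018. The CPM of Esrra spanned 90.3 to 99.6 in the controls, 81.8 to 84.5 in HFpEF-Veh and 92.5 to 107 in HFpEF-TYA-018, and those of Sirt3 spanned 20.3 to 23.9, 17.8 to 20.1 and 22.8 to 24.8 in the same order. In HFpEF-Veh against Control-Veh both fell by 0.20 on the log2 scale (edgeR adjusted p = 0.0278 and 0.0393), a direction that turned with rescaled TPM and with the length offset. In HFpEF-TYA-018 against HFpEF-Veh they rose by 0.29 and 0.35 (edgeR adjusted p = 0.00619 and 0.00441). These rises were not called with the length offset (0.17 and 0.25; edgeR adjusted p = 0.487 and 0.231) or on rescaled TPM (0.17 and 0.24; limma adjusted p = 0.581 and 0.376), nor was that of Esrra on the other TPM scales. The 2 falls were lost without each of C3, C4, V2, V3 and V4, and also without V1 for Esrra and C2 for Sirt3 (log2 fold change -0.22 to -0.15; edgeR adjusted p 0.0529 to 0.115). Exons of Esrra overlap Trmt112 and exons of Sirt3 overlap Psmd13 and Ric8a, on the other strand. Ppargc1a, a coactivator, was 32.3 to 61.2 CPM and Ppara, the fatty acid receptor of the fasting response in liver, 2.34 to 6.09 CPM over all libraries, and neither passed the test in any comparison (edgeR adjusted p 0.163 to 0.886).

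**Figure D5:**
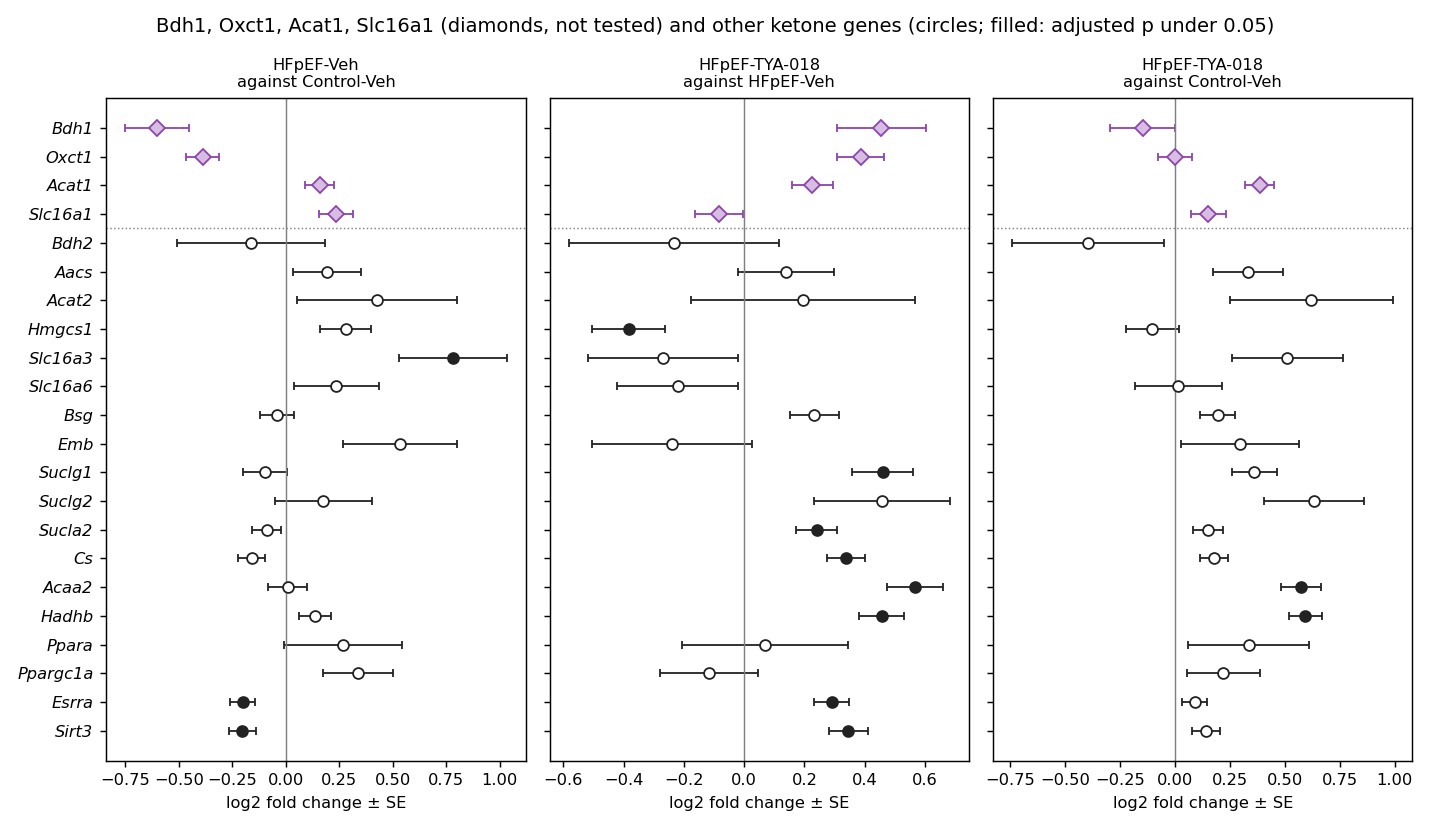
Log2 fold change with its SE for Bdh1, Oxct1, Acat1 and Slc16a1 (diamonds, not tested) and for the 18 other ketone genes tested (circles, filled where the edgeR adjusted p is under 0.05), in each comparison. Under TYA-018, 7 filled circles lie on the right, between 0.24 (Sucla2) and 0.57 (Acaa2), and that of Hmgcs1 on the left at -0.38.

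Among other transporters, Slc16a3, the lactate exporter MCT4, rose in HFpEF-Veh against Control-Veh by a log2 fold change of 0.78 ± 0.252 (SE; edgeR adjusted p = 0.0453), from 0.727 to 1.61 CPM to 1.86 to 2.51 CPM. Its TPM were at most 0.410 in any library, below the lowest TPM of Slc16a1, 2.96. That call was lost without each of C1, C2, C4, V1, V2, V3 and V4 (log2 fold change 0.59 to 0.88; edgeR adjusted p 0.0534 to 0.110). Bsg, the chaperone that MCT1 needs to reach the membrane, was 764 to 951, 833 to 930.0 and 943 to 1097 CPM in the 3 groups. Its log2 fold change under TYA-018 was 0.23 ± 0.080 (edgeR adjusted p = 0.0596). It was called higher there by DESeq2, with 2 groups in the fit, on log2(TPM + 1) and on log2(TPM + 0.1), and not under the other 5 settings. Slc16a6 (3.02 to 6.62 CPM) and Emb (0.468 to 1.34 CPM) did not pass the test, and Slc16a7 and Slc5a8 were at 0 in all but 1 and 2 of the 12 libraries. For the receptors, Ffar3 had no count in any library, which allows up to 0.0319 to 0.0521 CPM per library at a limit of 3 counts, and Hcar2 at most 3 counts. Intervals and limits of this kind cover counting error alone.

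The cytosolic arm, which turns acetoacetate into lipid and cholesterol precursors, drew few counts. Hmgcs1, the cytosolic synthase of the cholesterol pathway, spanned 10.8 to 12.7 CPM in the controls, 12.3 to 16.8 in HFpEF-Veh and 8.64 to 12.5 in HFpEF-TYA-018. It fell under TYA-018 (log2 fold change -0.38 ± 0.121, SE; edgeR adjusted p = 0.0452), a direction that turned on the TPM scales that are not rescaled. The call was lost without each of V1, V3, V4, T1, T2 and T3 (log2 fold change -0.43 to -0.28; edgeR adjusted p 0.0531 to 0.118). Aacs (1.84 to 3.02 CPM), Acat2 (0.662 to 3.19 CPM) and the second dehydrogenase Bdh2 (0.138 to 0.349 CPM) passed the test in no comparison. Acat2 and Acat3 share 43.7% and 46.9% of their 31-base words with each other, and Oxct2a and Oxct2b 56.9% and 57.7%, so the split of reads within each pair is uncertain. Acat3 had at most 14.2 estimated counts, Oxct2a 1 and Oxct2b none, Fgf21, a hormone of fasting, at most 19 and Hmgcll1 at most 10, so these were not tested. The 4 genes themselves share at most 0.205% of their words with any other gene.

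For orientation, 2 pathways that feed the same acetyl-CoA pool were counted in the same fit, both chosen with earlier results of these data known. Of all genes tested, 10.9% rose and 10.3% fell in HFpEF-Veh against Control-Veh, and 8.93% and 10.4% under TYA-018. In HFpEF-TYA-018 against Control-Veh the shares were 3.12% and 2.74%. The medians over all genes were -0.01, 0.00 and -0.02 in these comparisons. Of 20 genes of fatty acid beta-oxidation, none rose and 1 fell in HFpEF-Veh against Control-Veh (5 at an unadjusted p under 0.05; 2 rose and 2 fell by DESeq2), 13 rose under TYA-018 and 14 rose in HFpEF-TYA-018 against Control-Veh, with median log2 fold changes of 0.05, 0.32 and 0.33. Of 21 genes of branched-chain amino acid breakdown, 12 fell and none rose in HFpEF-Veh against Control-Veh (15 at an unadjusted p under 0.05; 12 fell and none rose by DESeq2), 15 rose under TYA-018, and 1 rose and 3 fell in HFpEF-TYA-018 against Control-Veh, with medians of -0.27, 0.35 and 0.07. With the length offset and on rescaled TPM, 5 and 7 genes of beta-oxidation rose under TYA-018. By DESeq2 15 rose, and 15 on log2(TPM + 1), a scale on which 97.0% of all calls were higher. Against Control-Veh 5 and 6 rose with the offset and on rescaled TPM, none on log2(TPM + 1) and 15 by DESeq2. The first median turned to -0.15 on log2(TPM + 1). With the offset, on rescaled TPM and on log2(TPM + 1), the falls of branched-chain genes numbered 7, 5 and 4, and their rises under TYA-018 6, 5 and 12. No test of a difference between lists was made.

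The genes whose log2 CPM ran closest to each of the 4 over the 12 libraries were ranked by Pearson's r among 6392 protein-coding genes with a mean of at least 10 CPM; the libraries share their groups, so r reflects differences between groups and between mice together. Closest to Oxct1 were Exoc7 (0.953), Aldh4a1 (0.950), Gramd1b (0.944), Faf1 (0.931) and Tom1l2 (0.927), where Aldh4a1 is a mitochondrial enzyme of proline breakdown. Closest to Bdh1 were Mtap (0.894), Akap7 (0.871), Tfip11 (0.859), Ppm1k (0.859) and Osbpl3 (0.846), where Ppm1k is the phosphatase of the branched-chain ketoacid dehydrogenase. Closest to Acat1 were Ephx2 (0.987), Slc25a20 (0.981), Pex19 (0.967), Asb10 (0.964) and Hadha (0.963), of which Slc25a20 carries acylcarnitines into mitochondria and Hadha is the partner subunit of Hadhb. Closest to Slc16a1 were Purb (0.921), Zdhhc9 (0.917), Pdlim5 (0.917), Cab39 (0.914) and Lims1 (0.902). No gene was among the closest 5 of more than 1 of the 4.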

How the data were processed

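Libraries were prepared with a stranded poly(A) kit. The authors trimmed reads with fastp, quantified them with Salmon 1.6.0 against mouse GENCODE transcripts of GRCm38.p6, with corrections for sequence, GC and position bias, and summed transcripts per gene with tximport; the labels name a human build, which the mouse gene names go against. The deposited tables hold estimated counts that were not scaled, TPM, and effective lengths in bases. Counts were rounded and fitted with edgeR 4.0.16 (filterByExpr, TMM, quasi-likelihood F test, 3 groups in 1 fit, 9 residual degrees of freedom), with adjustment by Benjamini-Hochberg over 14333 genes and a threshold of 0.05. The fit was tested on simulated counts before use. CPM are on TMM-scaled library totals. The labels describe single-end reads at a lower mean depth, and the study paired-end reads at a higher one. The estimated counts summed to 61177646 to 83928922 per library, and 4 mice per group limit the precision more than counting does. Each library is a separate animal by the number in its title; no batch is labelled, and the numbers of each group run together, so an order of handling and the group cannot be told apart.

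The 4 genes and all gene lists were chosen with earlier results of these data known. Named were the 4 genes, each gene of the ketone list (2 genes first planned for it are not reported here), and the 5 genes closest in r to each of the 4. Library shares were compared by exact permutation (scipy 1.17.1). The alternatives were DESeq2 1.42.0, RLE size factors, no mitochondrially encoded genes, no low-count filter, limma 3.58.1 on log2(TPM + 1), on log2(TPM + 0.1) and on TPM rescaled over 13349 coding genes above 0 in at least 90% of libraries, effective lengths as an offset, 2 groups in the fit, and each library left out. Gene positions and 31-base words came from GENCODE M21 and promoters from RefSeq. Exons of Bdh1 and Oxct1 overlap the antisense genes Gm15743 and BC037032, which were not analysed here.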

Additional observations from a re-analysis of the deposited data

Results flagged for a closer look

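Mouse V3 of the HFpEF-Veh group held 62.1 CPM of Bdh1, while the other 3 mice of the group held 42.0 to 43.9 CPM, so that its gap to the nearest of them was 0.906 of the range of the group, above Dixon's limit for 4 samples. It was the only value so far from its group among 66 groups of 4 examined, which covered the 4 genes and the 18 other ketone genes tested; chance alone passes this limit in about 1 in 20 groups. The same mouse had the highest Oxct1 level of its group, at 399.6 CPM. Without it the log2 fold change of Bdh1 was -0.75 against Control-Veh and 0.61 under TYA-018.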

How the results depend on the processing

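No paired analysis was possible because the 3 groups have no animal number in common. The settings that keep the count scale (DESeq2, RLE size factors, no mitochondrially encoded genes, no low-count filter, 2 groups in the fit) moved no log2 fold change of the 4 genes by more than the spread between mice, nor did leaving out any library. In HFpEF-Veh against Control-Veh, the values on log2(TPM + 1), log2(TPM + 0.1), rescaled TPM and with the length offset were -1.35, -1.52, -1.25 and -1.51 for Bdh1 and -0.19, -0.24, 0.018 and -0.027 for Slc16a1. Oxct1 was -0.71, -0.73 and, with the offset, -0.52, and Acat1 was -0.16, -0.16 and 0.048. In HFpEF-TYA-018 against HFpEF-Veh, Slc16a1 was 0.50, 0.60, 0.15 and 0.17 on the same 4 scales, and on the first 2 Bdh1 was 0.82 and 0.96, Oxct1 0.86 and 0.88 and Acat1 0.67 and 0.68. In HFpEF-TYA-018 against Control-Veh, Bdh1 was -0.53, -0.57, -0.75 and -0.99, Oxct1 on the first 2 was 0.14 and 0.15, Slc16a1 0.30 and 0.36, and Acat1 0.51, 0.52 and, with the offset, 0.29. These scales divide by effective lengths that differed between libraries; which scale is nearer the truth was not tested.

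Over all genes, the same 3 comparisons in that order called 3033, 2767 and 840. The first count was 172 on log2(TPM + 1), 301 on log2(TPM + 0.1), 1058 on rescaled TPM and 1445 with the offset, the second 742 and 1217 on the last 2, and the third 9, 11, 94 and 203, and 1501 by DESeq2; the cause was not tested. Leaving out 1 library gave 1986 to 3992, 1485 to 2729 and 308 to 809. Of the other ketone genes, 3, 8 and 2 were called. The first count was 1 with no filter, with 2 groups in the fit and on rescaled TPM, and 0 on both TPM scales and with the offset, the second was 1 on rescaled TPM and 2 with the offset, and the third was 0 on both TPM scales, 1 on rescaled TPM and with the offset, and 4 by DESeq2. Leaving out 1 library gave 0 to 3, 6 to 8 and 2 to 2. Reversed were Esrra (0.054 and 0.021) and Sirt3 (0.15 and 0.12) in the first comparison, on rescaled TPM and with the offset, and Hmgcs1 in the second (0.04 and 0.10 on the TPM scales). The share of calls that were higher was 61.5% on rescaled TPM in the first comparison (51.5% in the reported fit), 30.9% and 97.3% on log2(TPM + 0.1) in the first and second, and 63.6% on log2(TPM + 0.1) in the third (53.2%). Depth limits the genes with few counts, such as Hmgcll1 and Hcar2, which could not be tested.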
